A study of Micropterus salmoides with 6 samples.

Results

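Pancreatic-type digestive enzymes and chitinases were followed after acute warming in gut tissue of Micropterus salmoides, the largemouth bass, a predatory fish of warm fresh waters. Members were found in the deposited gene table by symbol (prefixes such as ctrb, cela, cpa1 to cpa6, cpb1, amy2, pla2g1b and chia) or by product description (trypsin, chymotrypsin, elastase, carboxypeptidase A or B, pancreatic lipase or amylase, bile salt-activated lipase, acidic mammalian chitinase). Of 35854 gene rows, 68 matched. Taking out 8 protease inhibitors left 60, of which 18 had fewer than 30 counts over all libraries, so that 42 genes were members. Among the 18, 11 were listed at 0 in every library, which at 93.3 M counts in all allows a level of up to 0.0321 counts per 1e+06. No gene of lactase (lct), gp2 or chit1 was a member. The lactase-phlorizin hydrolase-like LOC119903852 was expressed but matched no symbol or description of the rule, and it is counted among the brush border genes below. LOC119918082, a trypsin-like gene, was named singly in the rule with its difference between the groups already known, although its product description matched as well. Its values are therefore a description and no independent support.

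Fish of 25.2 ± 3.6 g from a farm, 120 in the whole study, were acclimated at 26 °C and then divided at random between 26 °C (control) and 34 °C (heat), with 3 parallels each. All fish were sampled after 9 h, and each library was made from equal amounts of intestine of 3 fish of 1 parallel, so that each group had n = 3 pools and the spread between pools understates that between fish. Neither strain, age, feeding state at sampling nor gut segment is given in the sources used here. Levels of a gene between libraries are given below as CPM, counts per 1e+06 of a TMM-scaled library size, in the order of replicates 1, 2 and 3. Levels between genes are compared as TPM, which is scaled by length. Log2 fold changes set heat over control and carry a standard error (SE), and a gene was called at an edgeR quasi-likelihood adjusted p under 0.05 over all genes tested.

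The exocrine pancreas makes most of the enzymes that break down food. Trypsin, chymotrypsin, elastase and the carboxypeptidases are stored as inactive zymogens, and enteropeptidase on the intestinal brush border cuts trypsinogen to trypsin, which then activates the rest. Amylase, phospholipase A2 and the lipases, among them the bile salt-activated lipase, act on starch and fat. In many bony fishes the exocrine pancreas is not a compact organ but lies scattered in the mesentery and fat along the gut. Acidic chitinases cut chitin, the polymer of crustacean and insect shells, and are known from the stomach and gut of many fishes that eat such prey.

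The smallest library, heat replicate 1, held 8.24 M counts and the largest, control replicate 1, 28.8 M. The largest also differed from its group: its log2 CPM correlated with those of control replicates 2 and 3 at 0.875 and 0.853 across genes, while those 2 libraries correlated at 0.932. Values without it are given below for several genes and lists. The tissue held enteropeptidase (tmprss15) at 549.0, 355.7 and 517.7 CPM at 26 °C and 542.3, 424.6 and 378.5 CPM at 34 °C, and the intestinal sucrase-isomaltase gene si reached 1205 to 8279 CPM. Pancreatic enzyme RNA was present in every library as well. The deposited files are bulk tissue, in which fewer cells of a type and less RNA per cell cannot be told apart.

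Of the 42 members, 40 passed the count filter of the test. LOC119905646 (chymotrypsin-C-like, up to 1.57 CPM) and LOC119885483 (trypsin-like, up to 0.833 CPM) did not. At 34 °C, 1 of the 40 was called, lower in heat, against 0.984% of the 20326 genes tested (0.394% lower, 0.59% higher). The log2 fold change was above 0 in 13 members and below 0 in 27, with a median of -0.28. Over all genes tested 42.1% were above 0, with a median of -0.12. An unadjusted edgeR p under 0.05 was reached by 4 members (LOC119918082, chia.1, LOC119919390 and LOC119905369), against 16.6% of all genes, and DESeq2 called these 4, against 7.08%. In each family below with 0 called, the chitinases excepted, no member had an unadjusted p under 0.05 and DESeq2 called none. The heat libraries all lay below the controls in 4 members and all above them in 1, and the groups overlapped in the other 35. Over all genes the heat libraries lay below the controls in 14.4% and above them in 11.5%, 25.8% together. The share of members without overlap was thus smaller than in the background, and nothing particular to them is read from it.

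**Figure D1:**
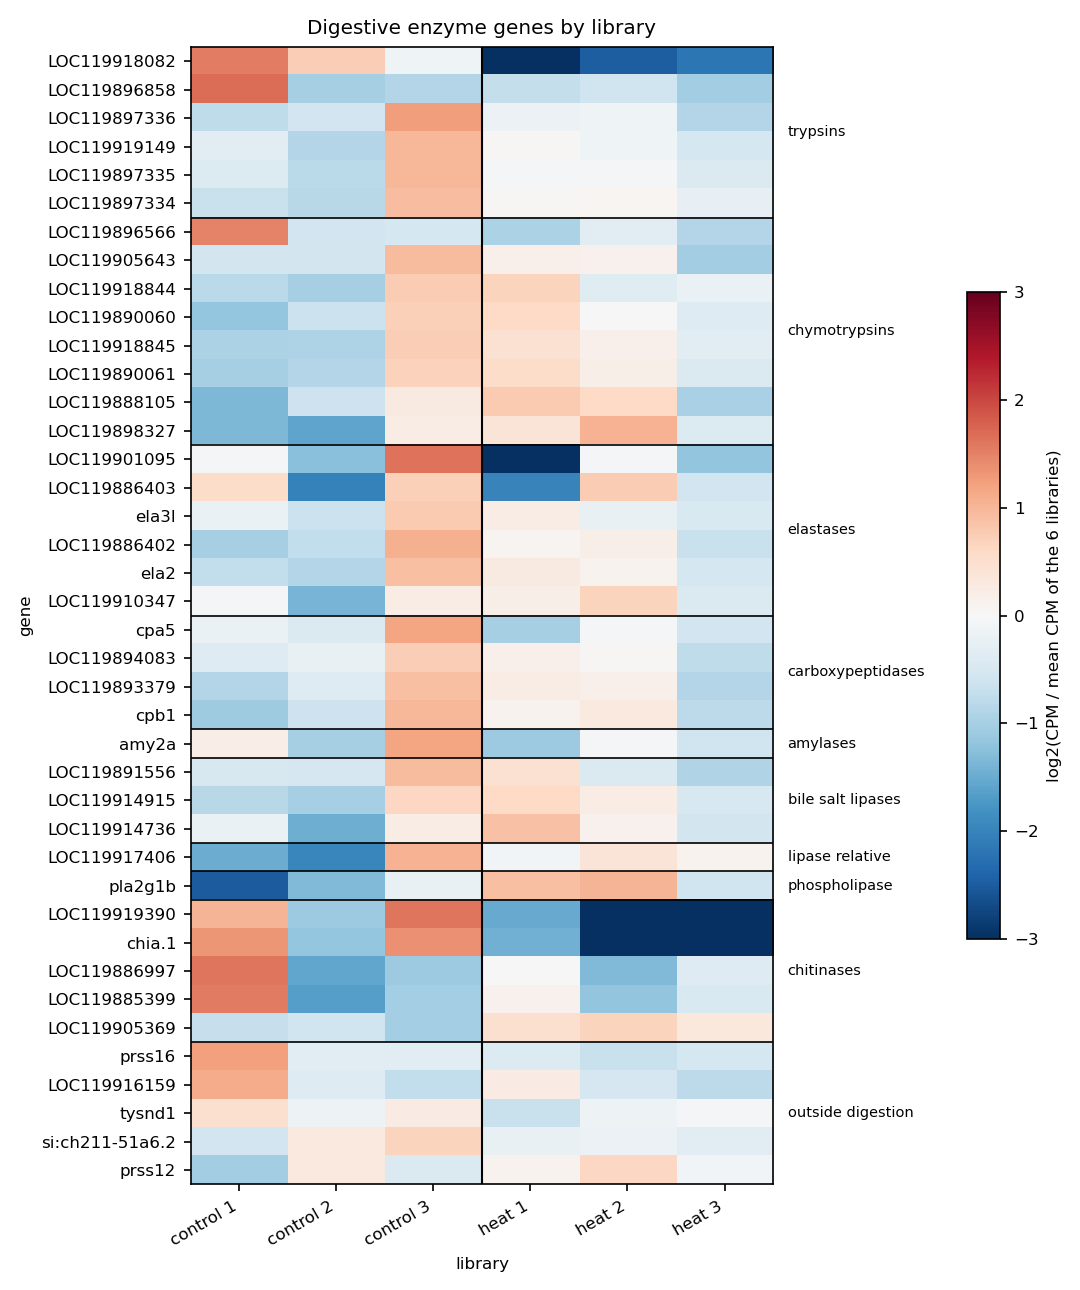
Each row is a tested member and each column a library, and the colour is log2 of a library's CPM over the mean CPM of the 6 libraries, with colours ending at -3 and 3. Most pancreatic enzymes are highest in control replicate 3, while LOC119918082 and the chitinases chia.1 and LOC119919390 are below the controls in all 3 heat libraries.

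Levels spanned a wide range. Per length, the highest were a pair of chitinases, LOC119886997 and LOC119885399, at a mean of 703.0 and 561.5 TPM over the 6 libraries, which ranked 124 and 170 among the 20326 genes. By product name, the highest pancreatic-type enzymes were the trypsinogen-like LOC119896858 (166.5 TPM), trypsin-2 LOC119897336 (82.1 TPM) and the elastase LOC119910347 (80.0 TPM). The mean of LOC119896858 was raised by control replicate 1, at 467.4 TPM against 83.4 to 137.5 TPM in the other libraries. pla2g1b was near the bottom at 2.79 TPM.

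Trypsins cleave proteins after lysine and arginine and activate the other zymogens. The family was formed from product names, and whether each gene encodes a digestive trypsin was not tested. Of 6 tested, 1 was called and all 6 had log2 fold changes below 0. The called gene, LOC119918082 (trypsin-like; scaffold NW_024040041.1, 32530062 to 32545414, plus strand), had 84.0, 47.9 and 26.3 CPM at 26 °C and 2.99, 5.17 and 6.41 CPM at 34 °C. Every control lay above every heat library. The means were 52.7 ± 29.2 and 4.86 ± 1.74 CPM (SD, n = 3), a log2 fold change of -3.42 (SE 0.50; 10.7-fold lower; adjusted p = 0.0325). Without control replicate 1 it was -2.89 and still called (adjusted p = 0.0134), in a fit that called 8.71% of all genes. Leaving out any other library kept the log2 fold change between -3.71 and -3.16. The adjusted p then lay between 0.0563 (without control replicate 3) and 0.221 (without heat replicate 2). Those fits called 0 to 10 of all genes.

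The gene next to it was also lower. LOC119896559, named tryptase-like, starts 3026 bp downstream on the same strand and had 156.3, 92.3 and 49.8 CPM at 26 °C and 8.70, 11.2 and 16.04 CPM at 34 °C. Its groups did not overlap either, and its libraries stood in the same order as those of LOC119918082. It was called at -3.05 (SE 0.47, 8.28-fold lower, adjusted p = 0.0358). Its adjusted p was 0.0138 without control replicate 1, where 8.71% of all genes were called. Without any other library that p was 0.0563 to 0.243, where 0 to 10 of all genes were called. Of all genes tested, LOC119896559 had the pattern most like that of LOC119918082 (Pearson r = 0.998 of log2 CPM over the 6 libraries). This is given as a description, since the difference between groups sets it. LOC119911667, dpp7, LOC119895377 and fdft1 followed, at 0.997, 0.997, 0.993 and 0.992.

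The other features tested in that stretch were not called. Within 100000 bp on either side, the tryptase-like LOC119896565 had 5.23, 3.55 and 1.98 CPM at 26 °C and 1.95, 1.73 and 1.73 CPM at 34 °C (-1.003, SE 0.46; adjusted p = 0.331). The prostasin-like LOC119918072 was at -0.86 (adjusted p = 0.541), and LOC119896562, which carries no description, had 159, 58 and 13 counts against 0, 0 and 5 (adjusted p = 0.0954). LOC119896571 had 8.45, 7.35 and 4.45 CPM against 9.09, 9.87 and 7.83 CPM, so that its groups overlapped (0.40, SE 0.34; adjusted p = 0.601). The window was chosen after values of the stretch had been seen. The assembled lncRNA transcripts MSTRG.4182.11, MSTRG.4182.15 and MSTRG.4182.16 overlap LOC119918082 on its strand and were at -2.50, -3.52 and -4.12 (adjusted p = 0.128, 0.141 and 0.112 over 1734 lncRNA transcripts, of which 0 were called and 14.5% had an unadjusted p under 0.05). At 26 °C they had 3.30, 7.41 and 4.69 CPM, 3.175, 14.4 and 9.96 CPM, and 1.59, 12.25 and 6.34 CPM in turn. Each was thus lowest among the controls in replicate 1, where LOC119918082 was highest. MSTRG.4182.19, which lies within LOC119896559 on its strand, had 1.89, 6.77 and 3.54 CPM against 3.38, 0 and 0 CPM. Its groups overlapped (-2.04, SE 1.48; adjusted p = 0.588). MSTRG.4182.11 and MSTRG.4182.15 run on from LOC119918082 into LOC119896559, which lies on the same strand. Overlapping features may share reads, so the transcripts are no separate evidence. Whether LOC119918082 and LOC119896559 are transcribed and counted independently was not tested. The chymotrypsinogen A-like LOC119918089, farther along the same scaffold, was listed at 0 in every library.

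**Figure D2:**
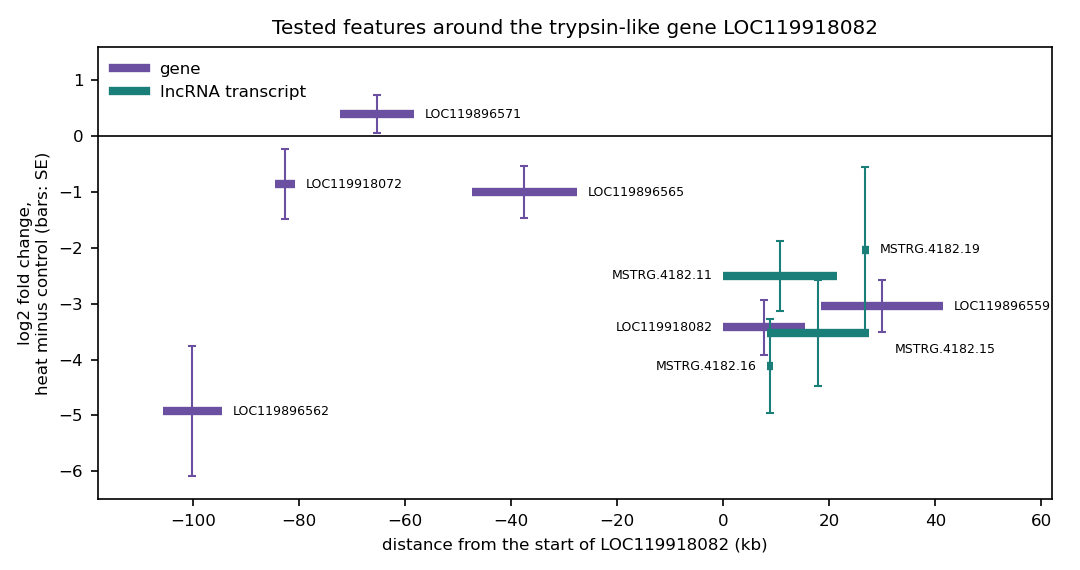
The x axis is the distance from the start of LOC119918082 in kb and the y axis the log2 fold change, with each thick bar spanning a gene or lncRNA transcript and each thin bar its SE. LOC119918082 and its neighbour LOC119896559 lie at -3.42 and -3.05, and the lncRNA transcripts that overlap LOC119918082 at -2.50 to -4.12.

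LOC119896858, annotated as trypsinogen-like protein 3, had 304.2, 47.9 and 52.1 CPM at 26 °C and 57.8, 63.1 and 46.6 CPM at 34 °C. Control replicate 1 alone was high, and the other 5 libraries overlapped. Its log2 fold change of -1.27 (SE 0.69; adjusted p = 0.409) became 0.17 without control replicate 1. Its upstream neighbour apoc2, an apolipoprotein gene, was at -2.60 (adjusted p = 0.0994), and at -1.75 without control replicate 1 (adjusted p = 0.04998). LOC119896566, chymotrypsinogen B-like, had the same shape, with 194.4, 46.7 and 48.3 CPM against 36.0, 54.8 and 38.2 CPM. It moved from -1.17 (SE 0.57; adjusted p = 0.358) to -0.13 without that library.

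The other tested trypsins shared another shape and were highest in control replicate 3, where LOC119918082 had its lowest control value. Trypsin-2 LOC119897336 had 22.2, 25.2 and 90.2 CPM at 26 °C and 33.1, 34.4 and 20.6 CPM at 34 °C. Control replicate 3 was far above the rest, and the groups overlapped (-0.64, SE 0.55; adjusted p = 0.605). Its neighbours on the scaffold, the trypsin-like LOC119897334 and the trypsin-2-like LOC119897335, and the trypsin-2-like LOC119919149 had 2.51 to 4.63 CPM in control replicates 1 and 2, 9.22 to 12.3 CPM in control replicate 3 and 3.21 to 6.60 CPM at 34 °C. LOC119897335 and LOC119919149 kept a ratio of 1.25 to 1.42 in every library, and LOC119919149 overlaps the serine protease 53-like gene LOC119919152 on the opposite strand, so their separate values are uncertain.

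Chymotrypsins cleave after large hydrophobic residues. Of 8 tested, 0 were called, 6 had log2 fold changes above 0 and 2 below, with a median of 0.28. Chymotrypsin A-like LOC119918845 had 12.4, 12.7 and 39.8 CPM at 26 °C and 33.0, 26.8 and 19.4 CPM at 34 °C. Control replicate 3 was again the highest, and the 3 heat libraries lay between it and the other controls (0.29, SE 0.49; adjusted p = 0.810). LOC119890061, on another scaffold, had 0.881 to 1.03 times its CPM in every library, and chymotrypsin B LOC119890060 and LOC119918844 kept a ratio of 0.576 to 0.949. Sequence identity within these pairs was not computed, and reads may be shared. The largest positive value of the family was that of LOC119898327, a chymotrypsin-like protease named CTRL-1, with 7.72, 6.58 and 22.9 CPM at 26 °C and 25.6, 40.1 and 14.8 CPM at 34 °C. Its groups overlapped through control replicate 3 and heat replicate 3 (1.12, SE 0.56; adjusted p = 0.370).

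Some elastases cleave after small residues. Of 6 tested, 0 were called, with 1 log2 fold change above 0 and 5 below (median -0.21). The most abundant per length, LOC119910347 (chymotrypsin-like elastase family member 2A), had 36.6, 14.1 and 43.3 CPM at 26 °C and 42.1, 59.6 and 27.6 CPM at 34 °C. ela2 had 14.7, 13.2 and 46.0 CPM against 29.4, 26.5 and 16.9 CPM, so that control replicate 3 exceeded the heat libraries and they exceeded the other controls (-0.02, SE 0.51; adjusted p = 0.990). LOC119901095 (elastase family member 3B) had 3.43, 1.48 and 10.8 CPM against 0.390, 3.45 and 1.54 CPM (-1.48, SE 0.87; adjusted p = 0.446).

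The carboxypeptidases trim residues from the C-terminal end, A types the hydrophobic and B types the basic ones. All 4 had log2 fold changes below 0, none was called, and all 4 were highest in control replicate 3. cpb1 had 9.14, 12.6 and 38.4 CPM at 26 °C and 20.8, 23.7 and 11.2 CPM at 34 °C (-0.11, SE 0.56; adjusted p = 0.946). cpa5 had 8.84, 7.48 and 23.0 CPM against 5.07, 9.87 and 6.86 CPM (-0.84, SE 0.49; adjusted p = 0.447). LOC119894083 (carboxypeptidase A1-like), which lies beside cpa5, was at -0.27 and LOC119893379 (A2-like) at -0.18, both with groups that overlapped.

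Enzymes of starch and fat digestion were not called either. amy2a, the pancreatic amylase, had 38.9, 17.0 and 77.2 CPM at 26 °C and 16.1, 32.6 and 22.6 CPM at 34 °C. The controls spread more widely than the heat libraries and overlapped them (-0.89, SE 0.53; adjusted p = 0.448). Of the 3 bile salt-activated lipases, LOC119914915 had 5.49, 4.90 and 14.99 CPM against 14.8, 11.5 and 7.06 CPM (0.40, SE 0.50; adjusted p = 0.740), LOC119914736 was at 0.58 and LOC119891556 at -0.34. LOC119917406, an inactive pancreatic lipase-related protein, had 1.07, 0.774 and 6.18 CPM against 2.86, 3.93 and 3.21 CPM (0.35, SE 0.76; adjusted p = 0.860). pla2g1b, the pancreatic phospholipase A2, had 0.172, 0.387 and 0.823 CPM at 26 °C and 1.82, 1.96 and 0.641 CPM at 34 °C. Heat replicates 1 and 2 were above all controls and heat replicate 3 was not (1.71, SE 0.77; adjusted p = 0.321).

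**Figure D3:**
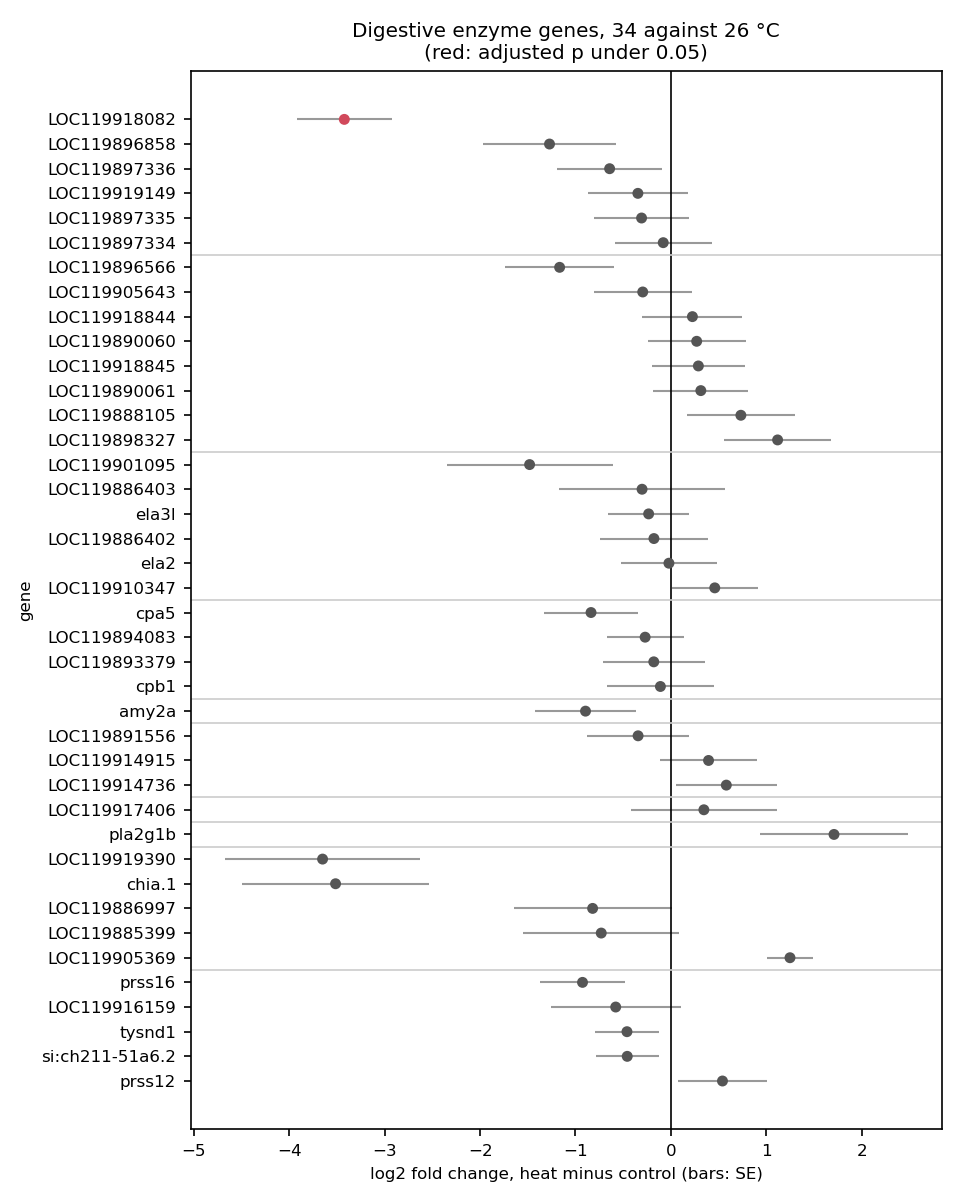
Points are log2 fold changes of the 40 tested members, grouped by family, and bars are SEs. LOC119918082 at -3.42 is the called member, and the 27 pancreatic-type enzymes other than it, LOC119896858 and LOC119896566 span -1.48 to 1.71.

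Leaving aside LOC119918082, LOC119896858 and LOC119896566, which were set apart after their values had been seen, 27 pancreatic-type enzymes remained. Summed, they had 253.5, 207.5 and 672.5 CPM at 26 °C and 420.1, 429.1 and 254.8 CPM at 34 °C. Control replicate 3 was the highest library and control replicate 2 the lowest, and the group means of 377.8 ± 256.2 and 368.0 ± 98.1 CPM (SD, n = 3) differed by a log2 ratio of -0.04. Over all 30 pancreatic-type enzymes tested, control replicate 3 exceeded the mean of the other controls in 27 and lay below it in 3, with ratios of 0.296 to 6.69 and a median of 2.92. The 3 are those set apart, so that the choice fixes the direction of this ratio in the other 27. Among all 20326 genes tested the same ratio was above 1 in 9019, with a median of 0.93. Of the 30, 21 were highest in control replicate 3, 3 in control replicate 1, 4 in heat replicate 2 and 2 in heat replicate 1, and among all genes 19.3%, 33.7%, 11.6% and 13.4% were highest in those libraries.

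The direction of these 27 genes against heat depended on which library was left out. With all libraries 11 log2 fold changes were above 0 and 16 below, with a median of -0.11, none was called and none had an unadjusted p under 0.05, which 16.6% of all genes had. Without control replicate 3, 24 were above 0 and 3 below with a median of 0.80, against 44.3% above 0 and a median of -0.10 over all genes. In that fit none was called, and 9 of the 27 had an unadjusted p under 0.05, all above 0. Of all genes 14.5% had such a p in either direction, and 1319 of 20935 had it with a value above 0. Among all 30 pancreatic-type enzymes 12 had such a p, 9 of them above 0. Over all 30 pancreatic-type enzymes the numbers without that library were 24 above and 6 below with a median of 0.64, and over the 40 members tested 26 above and 14 below with a median of 0.42. The library was singled out from the same values, so these counts are a description. Without heat replicate 3 the 27 genes turned as well, with 17 above 0, 10 below and a median of 0.10. Without control replicate 1 the median was -0.33, with 8 above 0 and 19 below (50.5% of all genes above 0), and without control replicate 2 it was -0.37. The log2 ratio of their summed CPM was 0.68 without control replicate 3, 0.17 without heat replicate 3 and -0.33 to -0.15 without any other library. Each of these statements rests on 2 or 3 pools a group.

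Of 11 genes listed for exocrine pancreas beyond the enzymes, 10 were tested and 0 called, with 3 log2 fold changes above 0 and 7 below (median -0.48). The list was formed by gene names. Whether its genes mark pancreas rather than gut epithelium in this tissue was not tested. Summed, they had 153.9, 183.8 and 228.0 CPM at 26 °C and 143.6 to 152.0 CPM at 34 °C. The order of the controls in that sum was set by 1 gene: without nr5a2, taken out after the values had been seen, the sum was 126.1, 101.8 and 109.5 CPM against 93.8 to 105.6 CPM. That sum holds gata4 at 52.7, 32.4 and 36.6 CPM and spink4 at 34.8, 6.7 and 13.8 CPM in the controls. Of the 10 genes, 4 were highest in control replicate 3 (nr5a2, bhlha15, dnase1 and cuzd1.2). Of the others, 3 were highest in control replicate 2 (rbpjl, cckar and prox1a), 2 in control replicate 1 (gata4 and spink4) and 1 in heat replicate 3. The last, the secretin receptor gene LOC119902101, had 13.3, 18.1 and 9.96 CPM at 26 °C and 20.6 to 27.8 CPM at 34 °C. Its heat libraries all lay above the controls, as in 11.5% of all genes (0.76, SE 0.30, adjusted p = 0.264). rbpjl had 4.85, 8.45 and 7.08 CPM at 26 °C and 1.95 to 5.26 CPM at 34 °C. nr5a2, a nuclear receptor of acinar cells that the gut epithelium also uses, had 27.8, 82.0 and 118.5 CPM at 26 °C and 46.4 to 50.2 CPM at 34 °C. It was called, lower in heat, without control replicate 1 (adjusted p = 0.0295), where 4.11% of all genes were called lower. bhlha15, a factor of secretory cells, had 6.22, 13.1 and 16.4 CPM against 12.7 to 13.9 CPM. ptf1a, the acinar determination factor, was at 0 to 1.17 CPM in every library. Whether the amount of pancreatic tissue in a pool sets the enzyme levels was not tested.

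The chitinases split into 3 patterns, and none of the 5 was called. chia.1 (acidic chitinase; scaffold NW_024043372.1, 36224008 to 36232514) had 296.7, 53.1 and 306.5 CPM at 26 °C and 43.7, 4.22 and 10.1 CPM at 34 °C. LOC119919390, on a small scaffold of its own (NW_024041945.1, 5 to 6978), had 161.1, 37.8 and 245.6 CPM against 27.9, 2.2 and 5.84 CPM. In both genes every heat library lay below every control, but control replicate 2 was close to heat replicate 1.

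The fitted differences of this pair were the largest among the members and did not pass the threshold. chia.1 was at -3.52 (SE 0.98; adjusted p = 0.134) and LOC119919390 at -3.65 (SE 1.02; adjusted p = 0.136). Both were called by DESeq2 (adjusted p = 9.38e-04 and 9.2e-04), which called 7.08% of all genes, and by voom with sample quality weights (adjusted p = 0.027 and 0.0239), which called 10.2%. Neither was called when any 1 library was left out. chia.1 then lay between -4.92 and -3.04 (adjusted p = 0.0968 to 0.396) and LOC119919390 between -5.19 and -3.03 (adjusted p = 0.0875 to 0.386). The lowest p came without control replicate 1, where 8.71% of all genes were called, and the highest without heat replicate 2. With any library except control replicate 1 left out, 0 to 10 of all genes were called. The ratio of the pair stayed between 1.25 and 1.92 in all libraries, and their sum was 457.8, 91.0 and 552.1 CPM against 71.6, 6.42 and 15.9 CPM. Sequence identity between them was not computed, and as genes of 1 family that vary together they may share reads and are not taken as separate observations.

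LOC119905369 (acidic mammalian chitinase-like, scaffold NW_024040707.1, 10621455 to 10625870) went the other way. It had 32.1, 34.8 and 25.9 CPM at 26 °C and 73.0, 83.0 and 64.7 CPM at 34 °C. Every heat library was above every control, with little spread within groups (30.9 ± 4.53 and 73.6 ± 9.20 CPM, SD, n = 3). The log2 fold change of 1.25 (SE 0.24; 2.38-fold higher) had an adjusted p of 0.0574, just above the threshold. It was called without control replicate 1 (1.29, adjusted p = 0.0177, where 8.71% of genes were), by DESeq2 (adjusted p = 2.09e-04), by voom (adjusted p = 0.00875) and when genes were fitted without lncRNA transcripts (adjusted p = 0.0424, where 1.75% of genes were called). With limma on log2(TPM + 1), which called 0.355% of genes, it was not, and over all alternatives its adjusted p reached up to 0.326. Its log2 fold change lay between 1.15 and 1.33 in all settings.

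The most abundant pair followed control replicate 1. LOC119886997 had 2168, 244.4 and 335.4 CPM at 26 °C and 718.3, 285.7 and 552.5 CPM at 34 °C, and LOC119885399 had 1698, 182.7 and 286.4 CPM against 629.3, 253.2 and 424.2 CPM. In both genes control replicate 1 was the highest of all libraries and control replicate 2 the lowest. Their log2 fold changes of -0.82 (SE 0.83) and -0.73 (SE 0.82), with adjusted p of 0.668 and 0.702, became 0.86 and 0.91 without control replicate 1 (adjusted p = 0.214 and 0.202). The ratio of the pair was 0.748 to 0.886 throughout. They lie on opposite strands of scaffold NW_024043372.1, and each is followed at 3072 or 3075 bp by a gene for ADP-ribosylation factor-related protein 1.

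**Figure D4:**
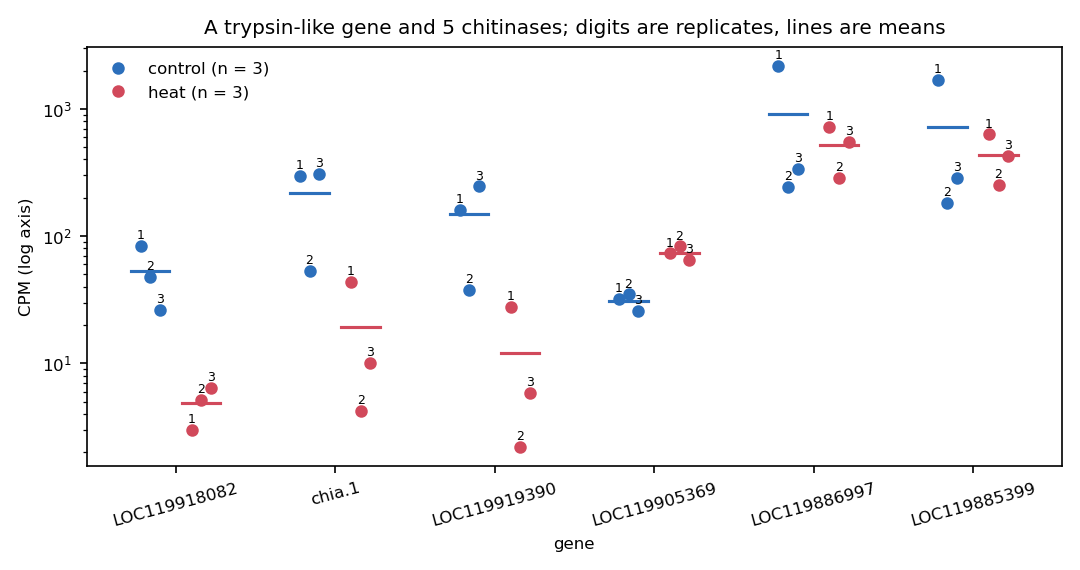
CPM on a log axis for LOC119918082 and the 5 chitinases, with points for libraries (digits give the replicate, blue control, red heat) and lines for group means. The groups do not overlap for LOC119918082, chia.1, LOC119919390 and LOC119905369, while LOC119886997 and LOC119885399 are set by control replicate 1.

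**Figure D5:**
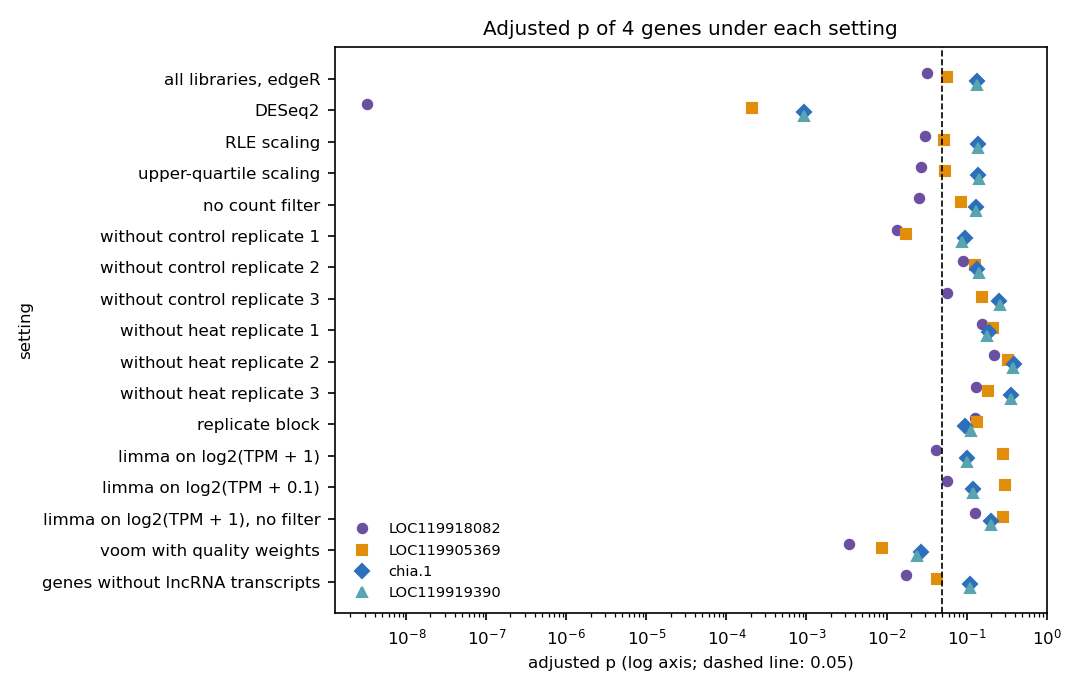
Adjusted p on a log axis for 4 genes, a row for each way of fitting the data, with the threshold of 0.05 as a dashed line. LOC119918082 lies left of the line in the fit of all libraries (0.0325) and right of it when a library other than control replicate 1 is left out, while LOC119905369 lies close to the line at 0.0574.

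The rule also caught 5 proteases that are not digestive enzymes, prss12 and prss16 by their symbols and the other 3 through trypsin in their product names. 0 of the 5 were called. prss16, a serine protease known from the thymus, had 52.3, 17.7 and 18.1 CPM at 26 °C and 17.0, 14.0 and 15.5 CPM at 34 °C. Its groups did not overlap, but control replicates 2 and 3 were close to heat replicate 1 (-0.93, SE 0.45; adjusted p = 0.351; -0.20 without control replicate 1). Neurotrypsin si:ch211-51a6.2, a protease of synapses in mammals, had 56.6, 102.3 and 132.2 CPM against 71.8, 74.0 and 66.1 CPM (-0.46, adjusted p = 0.538). Without control replicate 1 it was at -0.72 (adjusted p = 0.054). tysnd1, which cuts peroxisomal proteins, was at -0.46, neurotrypsin-like LOC119916159 at -0.58 and prss12 at 0.54.

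Genes that act on the zymogens or follow them were counted from lists. Of 14 genes of zymogen activation and inhibition, 3 were tested and 0 called, tmprss15 among them (-0.08, adjusted p = 0.931). The list median was -0.08 with all libraries and 0.54 without control replicate 1, where all 3 were above 0 and 0 called. itih6, a chain of an inter-alpha-trypsin inhibitor, had 1.03, 2.45 and 2.55 CPM at 26 °C and 7.28, 4.16 and 10.8 CPM at 34 °C (1.90, SE 0.52; adjusted p = 0.129). Of 10 brush border enzyme genes, which finish digestion at the epithelium, 8 were tested and 0 called. All 8 log2 fold changes were below 0, with a median of -1.43, and the heat libraries all lay below the controls in 6, against 14.4% of all genes. Summed, they had 4075 to 12590 CPM at 26 °C and 2005 to 2692 CPM at 34 °C. Without control replicate 1 all 8 were again below 0, with a median of -0.83 and control sums of 4075 and 5590 CPM, and 4 were called, lower in heat, against 4.11% of all genes.

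Markers of other tissues were measured beside the enzymes. Of 7 smooth muscle genes, 3 were called, all lower in heat (lmod1b, smtna and synm), with a median of -1.80 and a summed level of 5188 to 11520 CPM at 26 °C and 4010 to 4564 CPM at 34 °C, against 0.394% of all genes called lower. Those 3 were called without control replicate 1 as well (adjusted p = 0.0136 to 0.017), where 4.11% of all genes were called lower, and not without any other library (adjusted p = 0.0786 to 0.269), where 0 to 10 of all genes were called. Anterior intestine genes (14 tested of 15 found, 0 called, median -0.55) summed to 15640 to 87530 CPM at 26 °C and 19910 to 24870 CPM at 34 °C, with control replicate 1 the highest. Without it their median was 0.49, with 0 called. Posterior intestine genes (7 of 10, 0 called) summed to 110.9 to 240.0 and 185.4 to 301.1 CPM, and goblet cell genes (9 of 39, 0 called) to 2666 to 14990 and 4022 to 5758 CPM. Without control replicate 1 the goblet cell controls summed to 2666 and 2864 CPM, the median was 0.85, and 4 genes were called, 3 higher in heat against 4.61% of all genes and 1 lower. In that list the mucin-2-like LOC119893780 and LOC119893781 overlap on the same strand, and LOC119898530 had the same order of libraries as LOC119893780. Such copies may share reads and are not taken as separate observations. The posterior intestine median was 0.15 without control replicate 1, against -0.47 with all libraries. In that fit 1 gene of the list was called, slc10a2, higher in heat. Erythrocyte genes (7 of 17, 0 called) summed to 252.8 to 370.4 and 178.5 to 290.0 CPM. Outside control replicate 1, most of that sum was the hemoglobin gene LOC119915756. Its levels were 179.1, 257.0 and 227.6 CPM against 252.7, 232.1 and 166.1 CPM. The list median was -1.21, with 6 below 0 and 1 above. It was -0.555 without control replicate 1, again with 6 below 0 and 1 above. The hemoglobin genes LOC119891502 (97.9, 10.8 and 2.88 CPM against 1.67 to 5.85 CPM) and LOC119891526 (65.9, 5.55 and 0.824 CPM against 0.833 to 4.42 CPM) were far higher in control replicate 1.

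Cells of other digestive organs left little signal. The summed hepatocyte genes (2 tested of 8, 0 called) stayed at 1.20 to 7.41 CPM at 26 °C and 1.56 to 5.20 CPM at 34 °C, and endocrine pancreas genes (4 of 9, 0 called) at 10.5 to 18.9 and 13.9 to 15.1 CPM. Insulin (ins) was at 0 in 3 libraries and at most 2.47 CPM. Of 4 gastric gland genes 1 was tested, the pepsin A-like LOC119905579, with 0.429, 0 and 0 CPM at 26 °C and 4.29, 6.96 and 4.49 CPM at 34 °C. It was not called with all libraries and was called, higher in heat, without control replicate 1 (adjusted p = 0.0124), where both controls are at 0. In that fit 4.61% of all genes were called higher. The part of these tissues in the enzyme values was not tested.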

How the data were processed

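Whole-number counts and TPM values per gene and per lncRNA transcript were deposited by the authors for 6 libraries, per the file headers. The file headers name the authors' scaled values TPM, a unit that by definition divides by transcript length. Tools listed in the submitters' processing notes, with no role stated, are DESeq, StringTie 1.3.3 and HISAT2 2.1.0. Neither genome build nor strand setting of the counting is given in the sources used here. Total RNA libraries were used, per the labels' protocols. Positions are those of the deposited table.

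The gene table's 38342 rows include 2488 assembled genes whose counts equal the summed lncRNA transcripts (3399), and these were left out. The test was the quasi-likelihood one of edgeR 4.0.16 (R 4.3.3) on the deposited counts, after TMM scaling and filterByExpr (min.count 10, min.total.count 15), with genes and lncRNA transcripts in 1 fit and Benjamini-Hochberg adjustment within each class. SEs come from the F statistic, and the common biological coefficient of variation was 0.436. Alternatives used DESeq2 1.42.0, limma 3.58.1, other scalings, filters and left-out libraries.

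Total counts limit precision to between 0.0429 CPM (control replicate 1) and 0.13 CPM (heat replicate 1) for 1 read. The floors cover counting error only, while SEs and SDs also hold the spread between pools. All 42 members are in the reference gene table of assembly ASM1485139v1, which was used for names only.

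The members and lists were chosen with earlier results of these data known. Named are members past the threshold, up to 3 members per family with the highest mean TPM, the 4 not past it with the smallest adjusted p, and others where a result turns on them. Genes of other tissues are mostly given as counts. Replicates are separate pools, and p-values set the difference between groups against the spread between pools.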

Additional observations from a re-analysis of the deposited data

How the results depend on the processing

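With all libraries 200 of 20326 genes were called by edgeR. The count was 1437 with DESeq2, 2078 with voom and quality weights, 355 without lncRNA transcripts, 76 with limma on log2(TPM + 1), 41 with log2(TPM + 0.1) and 0 with TPM unfiltered, and 0 to 1825 when a library was left out. Of the members, 1 was called, against 4 with DESeq2 and with voom, 2 without lncRNA transcripts, 0 with log2(TPM + 0.1) and with TPM unfiltered, and 0 to 2 when a library was left out (2 without control replicate 1). With the replicate number as a block 0 genes and 0 members were called by edgeR (4 members at an unadjusted p under 0.05), and LOC119918082 had an adjusted p of 0.127. Same-numbered libraries did not deviate together (correlations of -0.01, -0.01 and 0.04), so the numbers are not taken as pairs. LOC119918082 was also not called with log2(TPM + 0.1) (adjusted p = 0.0568) or TPM unfiltered (adjusted p = 0.129), and its neighbour LOC119896559 with none of the TPM fits or the block (adjusted p = 0.0571 to 0.132).

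Of 432 alternative values of named genes' log2 fold changes, 30 changed sign, none of them in a called gene. Without control replicate 1, LOC119885399, LOC119886997 and LOC119896858 were at 0.91, 0.86 and 0.17, and with voom at 0.67, 0.58 and 0.031. LOC119917406 was at -0.03 without control replicate 1 and -0.10 without control replicate 2. For LOC119886402, cpb1 and ela2 in turn the values were 0.80, 0.80 and 0.83 without control replicate 3, 0.04, 0.15 and 0.18 without heat replicate 3, 0.13, 0.16 and 0.23 with the replicate block, 0.10, 0.12 and 0.21 with log2(TPM + 1), filtered or not, and 0.11, 0.13 and 0.22 with log2(TPM + 0.1). ela2 was at 0.11 with voom. Without control replicate 3, LOC119891556, LOC119894083 and LOC119897336 were at 0.34, 0.20 and 0.34. The cause was not tested. Over the fits that left out a library, these genes ranged from -1.20 to 0.91 (LOC119885399), -1.28 to 0.86 (LOC119886997), -1.68 to 0.17 (LOC119896858), -0.10 to 1.87 (LOC119917406), -0.51 to 0.80 (LOC119886402), -0.45 to 0.80 (cpb1), -0.33 to 0.83 (ela2), -0.79 to 0.34 (LOC119891556), -0.46 to 0.20 (LOC119894083) and -0.97 to 0.34 (LOC119897336). The log2 ratio of summed CPM of the chitinases, -0.94 with all libraries, was 0.27 without control replicate 1, and that of the 27 pancreatic-type enzymes, -0.04, was 0.68 without control replicate 3. With 3 pools a group, differences of the size seen in most pancreatic enzymes were not detectable beyond the spread between controls. How reads shared between genes were counted is not given.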
